A study of Mus musculus with 4 samples.

Results

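Osteoblast lineage genes were examined in molar tooth mesenchyme of mouse embryos at day 13.5, with and without the signalling ligand Bmp4 in the neural crest. The 8 genes were taken by symbol from a fixed list (Runx2, Cbfb, Sp7, Alpl, Phex, Spp1, Ibsp and Sparc), and all 8 were among the 22072 gene symbols of the deposited tables. The control was Bmp4f/+, with 1 floxed Bmp4 allele and no Cre named in its label. The mutant was Bmp4f/f;Wnt1Cre, in which both Bmp4 alleles are floxed and Cre is driven by Wnt1 regulatory sequence, active in the neural crest that gives rise to tooth mesenchyme. An effect of the Cre transgene and an effect of Bmp4 loss therefore cannot be told apart. All embryos were of mixed background. Upper (maxillary) and lower (mandibular) molars were captured apart by laser from frozen sections, which gave 4 groups of 1 RNA sequencing library each, and per the series description the RNA came from pools of 3 control and mutant pairs. The labels do not tell which embryos went into which library.

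Osteoblasts arise from mesenchymal cells under the transcription factor Runx2, which binds DNA as a dimer with Cbfb. Sp7 (osterix) acts after Runx2 and is needed for bone formation. Maturing cells then make the phosphatase Alpl, the membrane peptidase Phex and the matrix proteins Sparc, Spp1 (osteopontin) and Ibsp (bone sialoprotein). Early molar mesenchyme also expresses Runx2, and in mice without it molar development stops early, at about the bud stage. BMP ligands are known inducers of the osteoblast lineage, and the bone of the tooth socket forms from mesenchyme beside the tooth germ.

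The libraries held about 4820000 to 5550000 reads on annotated transcripts, estimated from the deposited coverage. Values are FPKM, the fragments of a transcript per kilobase of its length and scaled to the mapped fragments of the library, summed over a gene's transcripts. Because FPKM is per length, levels of different genes can be set side by side, but only roughly. The cDNA was amplified, and FPKM does not correct for uneven amplification between genes. Differences are mutant minus control, or lower minus upper molar, on the log2(FPKM + 1) scale, which understates changes of weakly expressed genes. Tests used limma with genotype and molar as additive terms on 10502 genes, those whose mean was 1 FPKM or more. This fit has 1 residual degree of freedom and 5.77 prior ones. Its standard errors (SE) and p-values therefore rest mostly on a variance pooled over all genes, and less on a gene's own disagreement between molars. For Sp7 the SE was 0.25, where the genotype difference changed by 1.15 between molars. For Runx2 it was 0.10, where the change was 0.02. With 1 library per group, neither source estimates how embryos or pools vary. Bmp4, the targeted gene, was at 24.8 and 27.2 FPKM in control upper and control lower molars and at 4.75 and 4.90 FPKM in the mutants (fell by 2.21 ± 0.11, log2, SE, limma adjusted p = 0.0008). The tissue label was compared with 9 molar mesenchyme markers, among them Pax9, Msx1 and Barx1. All 9 had a mean of at least 1 FPKM, with a summed level of 629 to 732 FPKM per library. Of all 22072 genes, 10502 reached that mean, so this is only a weak check of the tissue. In bulk tissue, fewer cells of a type and less RNA per cell cannot be told apart.

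Runx2 was read from a pair of start sites, and the coding starts are shown because the deposited tables separate its transcripts by start. The distal start, farther upstream, and the proximal start lie 78149 bases apart in the deposited loci (mm9). The coding starts below were read from GENCODE M21 transcripts (GRCm38, chromosome 17, minus strand), with the start codon at 44814224 to 44814226 for the distal and at 44735632 to 44735634 for the proximal form. Capitals mark the bases that belong to 1 form alone and lower case the first 30 of the 1527 coding bases that both forms share. The distal form has 57 coding bases of its own and the proximal form 15. The distal form shown is the transcript of 5898 bases in the deposited tables. The coding bases of the other distal transcript, of 5865 bases, were not read.
Runx2 distal start: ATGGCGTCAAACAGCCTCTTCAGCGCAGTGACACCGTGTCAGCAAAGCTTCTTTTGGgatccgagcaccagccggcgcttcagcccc
Runx2 proximal start: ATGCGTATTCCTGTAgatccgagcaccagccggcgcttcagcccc

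Windows of 300 bases around RefSeq start sites (GRCm38.p6, 250 before and 50 after the start) were searched for the core Runx motif TGTGGT on both strands, where the other strand reads ACCACA. The table holds such windows for 7 of the 8 genes, 9 windows in all, and 3 windows, of Runx2, Spp1 and Sparc, held the motif. It holds no window for Sp7 or for the proximal Runx2 start, so these were not searched. Of all 32851 windows, 16.8% held it. The Runx2 window lies at the distal start and held 3 matches, beginning at positions -80, 24 and 32 from the start. The Spp1 match began at -128 and the Sparc match at 36. These are letter matches and were not tested as binding sites. The 4 stretches are printed because Runx2, the factor that reads this motif, was the most abundant regulator of the list, with each match in capitals.
Runx2, chr17:44814690-44814719, minus strand: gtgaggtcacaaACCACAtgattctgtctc
Runx2, chr17:44814583-44814612, minus strand: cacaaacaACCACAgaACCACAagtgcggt
Spp1, chr5:104434971-104435000, plus strand: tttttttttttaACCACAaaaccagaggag
Sparc, chr11:55420031-55420060, minus strand: ggtagcacacagcctACCACAaggcaagga

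The first question was how the osteoblast lineage genes differed between mutant and control. The regulators Runx2, Sp7 and Cbfb and the phosphatase Alpl had lower mutant levels in both molars, while Phex and Sparc went opposite ways in upper and lower molars, as 40.2% of all genes tested did. None of the 6 members with a mean of at least 1 FPKM passed the test over all genes (limma, adjusted p under 0.05), and 3 of them, Runx2, Sp7 and Alpl, had an unadjusted limma p under 0.05. Over all 10502 genes, limma called 0.457% lower and 0.343% higher, 0.8% in either direction, and 13.2% had an unadjusted p under 0.05. Spp1 and Ibsp did not reach a mean of 1 FPKM and were not tested.

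**Figure D1:**
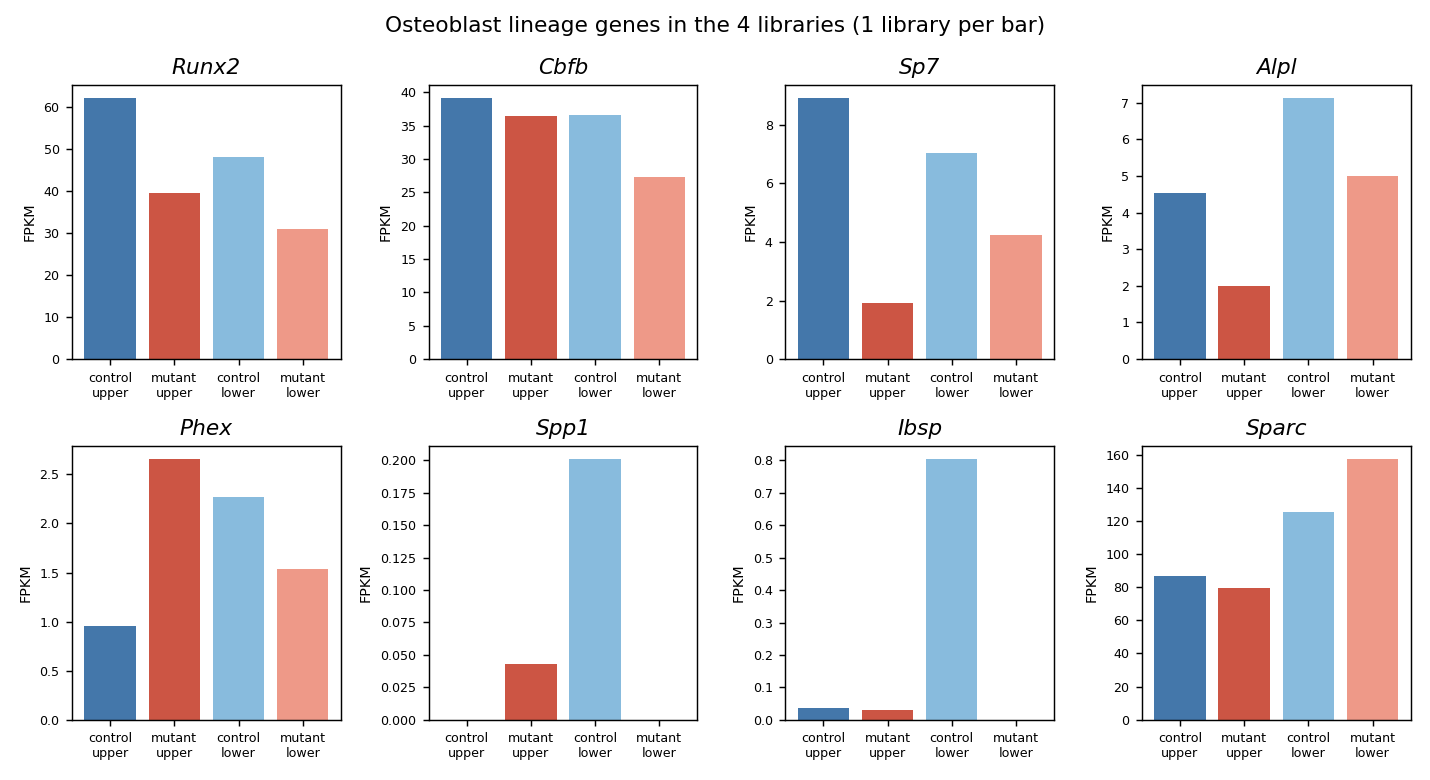
FPKM (vertical axes, linear, from 0) of each osteoblast lineage gene in the 4 libraries, 1 library per bar and no error bars because each group has 1 library. Runx2 and Sp7 are lower in both mutant bars than in both control bars, and Ibsp stands above 0.1 FPKM in the control lower molar alone.

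Runx2 (chromosome 17, 44740950 to 44951746, mm9, 3 transcripts) was at 62.2 FPKM in the control upper, 48.2 FPKM in the control lower, 39.5 FPKM in the mutant upper and 31.0 FPKM in the mutant lower molar. Both mutant libraries lay below both controls. The mutant level was 63.6% of the control in upper and 64.4% in lower molars, so the size of the difference was nearly the same in both jaws (-0.64 and -0.62, log2). Over both molars the difference was -0.63 ± 0.10 (log2, SE, limma adjusted p = 0.056). It passed among genes averaging 5 FPKM or more, after rescaling to an equal sum and without transcripts under 0.3 kb, and its adjusted p ran from 0.013 to 0.97 over all alternatives. About 2640 to 4860 reads per library lay behind these levels.

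By start site, the 2 distal Runx2 transcripts together were at 52.2 and 38.8 FPKM in control upper and control lower molars and at 32.3 and 22.7 FPKM in the mutants. The proximal transcript measured 10.02 and 9.42 FPKM in the controls against 7.20 and 8.34 FPKM in the mutants. Distal transcripts made up most of Runx2 in every library. Of the 2, the 5865-base transcript was at 43.9 and 24.6 FPKM in controls and 27.5 and 15.5 FPKM in mutants, and the 5898-base one at 8.23 and 14.2 FPKM in controls and 4.84 and 7.15 FPKM in mutants. In the mutant the distal level was 62.0% of the control in upper and 58.5% in lower molars, and the proximal level was 71.8% and 88.5%. The proximal share of Runx2 was 16.1% in the control upper, 19.6% in the control lower, 18.2% in the mutant upper and 26.9% in the mutant lower molar. It was higher in the mutant in both molars, by a wider margin in the lower. Reads shared by both forms were divided among transcripts by the authors' software, so these shares are estimates, and they were not tested.

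**Figure D2:**
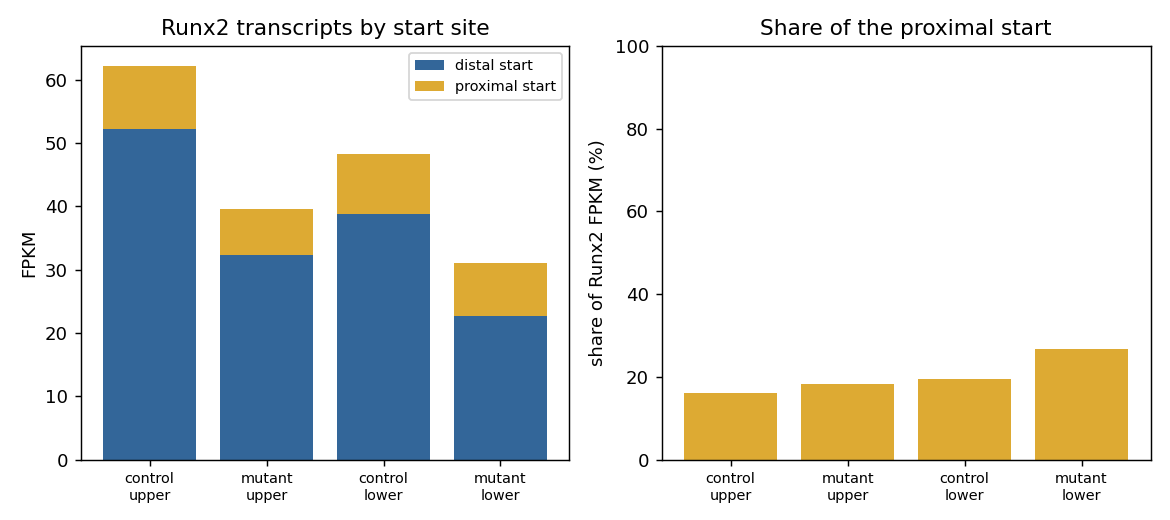
Left, FPKM of Runx2 transcripts in the 4 libraries, stacked by distal (blue) and proximal (yellow) start. Right, the proximal start as a percentage of all Runx2 FPKM, which runs from 16.1% in the control upper to 26.9% in the mutant lower molar.

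Cbfb, the DNA-binding partner of Runx proteins (chromosome 8, 107694574 to 107741888, mm9, 4 transcripts), was at 39.2 and 36.7 FPKM in control upper and control lower molars and at 36.4 and 27.2 FPKM in the mutants. The mutant upper library lay just under the control lower library. The difference was -0.10 in upper and -0.42 in lower molars and -0.26 ± 0.12 over both (log2, SE, limma adjusted p = 0.42). It was -0.06 without the mutant lower and -0.46 without the mutant upper library, in fits with no molar term. One of the 4 transcripts, 2913 bases long, carried 62.1% to 72.6% of Cbfb FPKM in each library. The 2765-base transcript had 27.2% and 20.5% in the controls and 11.6% and 31.6% in the mutants, with no common direction. Cbfb was nearer to its control level than Runx2 was, and the contrast between these genes was not tested.

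Sp7, a zinc finger factor of committed osteoblast precursors (chromosome 15, 102187608 to 102196702, mm9, 1 transcript), was at 8.92 FPKM in the control upper, 7.04 FPKM in the control lower, 1.92 FPKM in the mutant upper and 4.25 FPKM in the mutant lower molar. Both mutant libraries were below both controls, and the mutant upper molar was the lowest. The mutant level was 21.5% of the control in upper and 60.4% in lower molars, with about 65.2 reads against 267 in the upper. The difference was -1.76 in upper and -0.61 in lower molars and -1.19 ± 0.25 over both (log2, SE, limma adjusted p = 0.12). The 1.15 by which the 2 molars differ lies outside the range of -0.66 to 0.57 that held the central 95% of all genes tested. With 1 library per group this difference between molars has no test. Sp7 passed by genotype among genes averaging 5 FPKM or more and with transcripts under 0.3 kb left out (limma adjusted p from 0.012 to 0.97 over all alternatives).

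Alpl, the tissue-nonspecific alkaline phosphatase that frees phosphate for mineral (chromosome 4, 137297647 to 137352292, mm9, 1 transcript), was at 4.53 and 7.13 FPKM in control upper and control lower molars. It was at 1.99 and 4.99 FPKM in the mutants. Each mutant was below the control of its own molar, but the mutant lower library lay above the control upper library, so the genotypes overlapped. The mutant level was 44.0% and 70.0% of the control. The difference was -0.89 in upper and -0.44 in lower molars and -0.66 ± 0.14 over both (log2, SE, limma adjusted p = 0.13). Leaving out 1 library, which also drops the molar term, gave -0.16 without the mutant upper, -0.39 without the control lower and -1.16 without the mutant lower molar.

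Phex, a membrane metallopeptidase of osteoblasts and osteocytes whose loss causes phosphate wasting (chromosome X, 153596618 to 153853218, mm9, 1 transcript), had the opposite order in the 2 molars. The upper molars held 0.958 FPKM (control) and 2.66 FPKM (mutant), and the lower molars 2.27 FPKM (control) and 1.54 FPKM (mutant). These values rested on about 78.6, 248, 185 and 135 reads in that order. The difference was 0.90 in upper and -0.37 in lower molars (log2), and over both molars it was 0.27 ± 0.28 (log2, SE, limma adjusted p = 0.73). The difference between molars, -1.27, was also outside the central 95% of genes, and it was not tested.

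Among matrix proteins, Sparc (osteonectin, a calcium and collagen binding glycoprotein, chromosome 11, 55208003 to 55233582, mm9) was the most abundant member. It was at 87.0 and 125 FPKM in control upper and control lower molars and at 79.3 and 158 FPKM in the mutants. The mutant was the lower of the pair in upper molars and the higher in lower ones, by -0.13 and 0.33 (log2). Over both molars the difference was 0.10 ± 0.13 (log2, SE, limma adjusted p = 0.80). Sparc is also made by endothelial cells and many fibroblasts, so its level is not specific to bone.

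Ibsp and Spp1, secreted RGD proteins of mineralising matrix, were near the limit of detection. Ibsp (chromosome 5, 104728306 to 104740491, mm9) was at 0.0352 FPKM in the control upper, 0.805 FPKM in the control lower and 0.0300 FPKM in the mutant upper molar, and it was listed at 0 in the mutant lower molar. The control lower value rested on about 20.5 reads and the other libraries held about 1 read or none. A count of 3 reads would have been 0.103 to 0.118 FPKM, so Ibsp was detected above that level in the control lower molar only. Spp1 (chromosome 5, 104864130 to 104870072, mm9, 5 transcripts) was at 0.201 FPKM in the control lower molar, about 3.73 reads against the 0.152 FPKM of 3 reads, and at 0.0433 FPKM in the mutant upper molar, about 0.915 reads. It was listed at 0 in the other 2 libraries, where 3 reads would have been 0.151 and 0.140 FPKM. A genotype difference of Spp1 was not detectable at this depth. These limits cover counting error only, since amplified reads are not independent molecules.

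In counts, 4 of 6 members (Runx2, Sp7, Cbfb and Alpl) had lower mutant values in each molar, against 32.4% of all genes tested, and 0 had higher mutant values in each, against 27.2%. For 3 of the 6, Runx2, Sp7 and Cbfb, both mutant libraries lay below both control libraries, against 23.1% of all genes, and for 0 did both lie above, against 18.4%. Within a molar, on the log2(FPKM + 1) scale, 1 member, Sp7, was lower by at least 2-fold in upper molars and 0 in lower ones, against 0.59% and 0.619% of all genes. By the same measure 0 members were higher in the mutant in either molar, against 0.419% (upper) and 0.476% (lower). The median difference of the 6 was -0.39 in upper and -0.43 in lower molars, where all genes had medians of 0.02 and -0.05. In the upper molar Runx2, Sp7 and Alpl lay below the 2.5th percentile of all genes, -0.50, and in the lower molar Runx2 and Sp7 lay below theirs, -0.57. The members were chosen with earlier results of these data known, so these counts are descriptive.

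**Figure D3:**
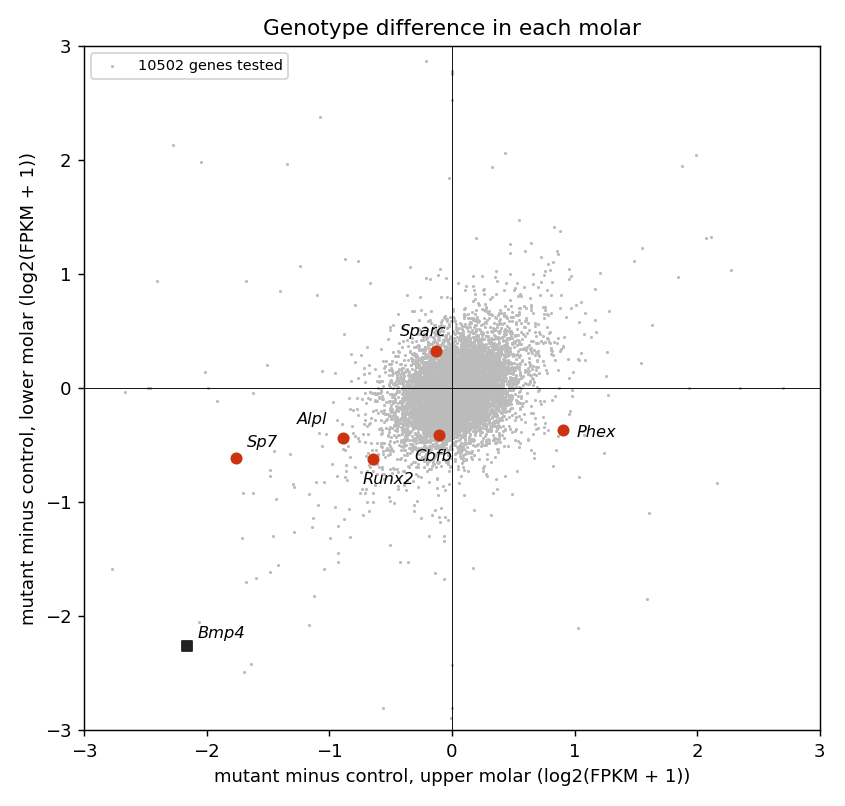
Each point is 1 of the 10502 genes tested, with the mutant minus control difference in the upper molar (horizontal) and lower molar (vertical), both on the log2(FPKM + 1) scale, and 19 genes outside ±3 not drawn. Red points are the 6 tested osteoblast lineage genes, of which 4 are at the lower left, and the black square is Bmp4 at -2.16 and -2.26.

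The second comparison set lower against upper molars. Alpl and Sparc were higher in the lower molar in both genotypes. Sparc was 1.44 times the upper level in controls and 1.99 times in mutants, and Alpl 1.57 and 2.505 times. Over both genotypes Alpl differed by 0.78 ± 0.14 and Sparc by 0.75 ± 0.13 (log2, lower minus upper, SE, limma adjusted p = 0.086 and 0.082). Runx2 was lower in the lower molar, at 0.77 times the upper level in controls and 0.78 times in mutants (-0.35 ± 0.10, log2, SE, limma adjusted p = 0.28). In fits with 1 library left out and no genotype term, the Runx2 difference was -0.03 without the control upper, -0.04 without the mutant lower, -0.66 without the control lower and -0.67 without the mutant upper molar. By the same fits Alpl was at 0.34 without the mutant upper and 1.22 without the control upper molar. limma called 0 of the 6 members by molar, with 3 (Alpl, Sparc and Runx2) at an unadjusted p under 0.05, against 0.724% of all genes called, 0.39% with the higher level in the lower molar, and 10.2% at that unadjusted p.

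For 2 members the order of the molars was not the same in the 2 genotypes. Sp7 in the lower molar was 0.79 times the upper level in controls and 2.21 times in mutants. Phex FPKM was 2.37 times the upper level in controls and 0.58 times in mutants. Among mutant libraries, on the log2(FPKM + 1) scale, 1 member, Alpl, was at least 2-fold higher in the lower than in the upper molar, against 0.657% of all genes, where 1.28% reached 2-fold in either direction. In controls 0 of the 6 reached 2-fold on that scale, against 0.971% in either direction and 0.448% with the lower molar higher. Both lower molar libraries were above both upper libraries for Alpl and Sparc, 2 of 6, against 12.2% of all genes, and below them for 0, against 21.2%. Of 11 tested factors that act with or before Runx2, limma called 2 higher in lower molars, against 0.39% of all genes. These were the homeobox genes Dlx5 and Dlx6, named after their values were seen. Dlx5 was at 14.6 FPKM in control upper and 39.2 FPKM in control lower molars, and at 10.1 and 28.9 FPKM in the mutants (1.401 ± 0.10, log2, lower minus upper, SE, limma adjusted p = 0.0035).

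The order of the FPKM levels was the same at the top in all 4 libraries, with Sparc highest, then Runx2, then Cbfb. Sp7 was above Alpl in the control upper molar, close to it in the control lower molar (7.04 and 7.13 FPKM) and in the mutant upper molar (1.92 and 1.99 FPKM), and below it in the mutant lower molar (4.25 and 4.99 FPKM). Phex exceeded both Sp7 and Alpl in the mutant upper molar alone, at 2.66 FPKM. Ibsp and Spp1 were last throughout.

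Genes known to act with or around Runx2 and Sp7 were then described from lists of the lineage. The 11 tested factors that act with or before Runx2 and Sp7 had a median of -0.20, against -0.02 for all genes. Of these 11, limma called 4 lower and 0 higher, against 0.457% and 0.343% of all genes. Among them were Msx2 and Dlx3 (homeobox factors) and Runx1 (a paralog of Runx2). Runx1 measured 4.33 and 3.30 FPKM in control upper and control lower libraries against 1.89 and 0.942 FPKM in the mutants, and fell by 1.02 ± 0.14 on the log2 scale (SE, limma adjusted p = 0.034). Dlx3 measured 3.00 and 2.11 FPKM in the controls against 0.452 and 0.265 FPKM in the mutants, and fell by 1.38 ± 0.16 on the log2 scale (SE, limma adjusted p = 0.024). Msx2 fell by 1.49 ± 0.14 (log2, SE, limma adjusted p = 0.015).

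Runx1, Runx2 and Runx3 share Cbfb as a partner. Runx3 measured 1.10 and 1.04 FPKM in the controls against 1.56 and 1.24 FPKM in the mutants, a difference of 0.21 ± 0.16 (log2, SE, limma adjusted p = 0.62). Runx2, at 31.0 FPKM or more, was above both paralogs in each library. None of the calls of Msx2, Dlx3 and Runx1 was kept after rescaling FPKM by median ratios, with no filter for weak genes, without a molar term, or when any 1 of the 4 libraries was left out. Over all alternatives run, the limma adjusted p of these 3 genes ranged from 0.0036 to 0.97. The 12th gene of this list, Cebpb, was below a mean of 1 FPKM and was not tested.

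Of 9 tested genes known to restrain Runx2 or osteoblast differentiation, limma called 1 lower and 0 higher, against 0.457% and 0.343% of all genes. The list median was -0.07. The called gene, Hey1, is a transcriptional repressor and a target of Notch and BMP signals. It measured 23.0 and 18.2 FPKM in the controls against 9.68 and 3.53 FPKM in the mutants, and fell by 1.62 ± 0.20 on the log2 scale (SE, limma adjusted p = 0.028). The call was not kept without an intensity trend, a filter or a molar term, after rescaling to median ratios, or without 3 of the 4 libraries, the mutant upper being the exception (limma adjusted p from 0.00024 to 0.97 over all alternatives). Tle1, a Groucho family corepressor, differed by 0.31 ± 0.11, and Twist2, a bHLH factor, by 0.30 ± 0.12 (log2, SE, limma adjusted p = 0.30 and 0.38).

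Of 6 tested genes of mineral deposition, limma called 0, against 0.8% of all genes. An unadjusted limma p under 0.05 was reached by 2, against 13.2% of all genes. Enpp1, which makes the mineral inhibitor pyrophosphate, was at 13.8 and 7.60 FPKM in control upper and control lower molars and at 15.6 and 1.87 FPKM in the mutants. Its difference was 0.17 in upper and -1.58 in lower molars (log2), and over both it missed the threshold (-0.71 ± 0.35, log2, SE, limma adjusted p = 0.46). Ank, a protein that carries pyrophosphate precursors out of cells, differed by -0.37 ± 0.13 and the mineral inhibitor Mgp by 0.35 ± 0.13 (log2, SE, limma adjusted p = 0.31 and 0.34).

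Of 10 tested bone matrix and collagen processing genes limma called 0, against 0.8% of all genes, and the list median was 0.00. An unadjusted limma p under 0.05 was reached by 3, against 13.2% of all genes. Col1a2, a chain of type I collagen, measured 85.5 and 110 FPKM in the controls against 113 and 138 FPKM in the mutants (0.37 ± 0.10, log2, SE, limma adjusted p = 0.21). The proteoglycan Bgn measured 61.0 and 59.4 FPKM in the controls against 48.5 and 43.1 FPKM in the mutants (-0.39 ± 0.10, log2, SE, limma adjusted p = 0.20). Serpinf1, a secreted factor of bone, differed by -0.32 ± 0.10 (log2, SE, limma adjusted p = 0.28). Osteocalcin, the product of mature osteoblasts, was listed at 0 in all 4 libraries for Bglap and Bglap2, near-identical genes among which reads could be divided or lost. Of the 5 genes shared with osteocytes or the family of Spp1 and Ibsp, Pdpn alone was tested (0.28 ± 0.16, log2, SE, limma adjusted p = 0.52). Dspp, Mepe and Sost were under 0.1 FPKM in every library. Dmp1 measured 0.0293 FPKM in the control upper and 0.118 FPKM in the control lower molar, on about 1.06 and 4.24 reads. It was listed at 0 in both mutants.

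**Figure D4:**
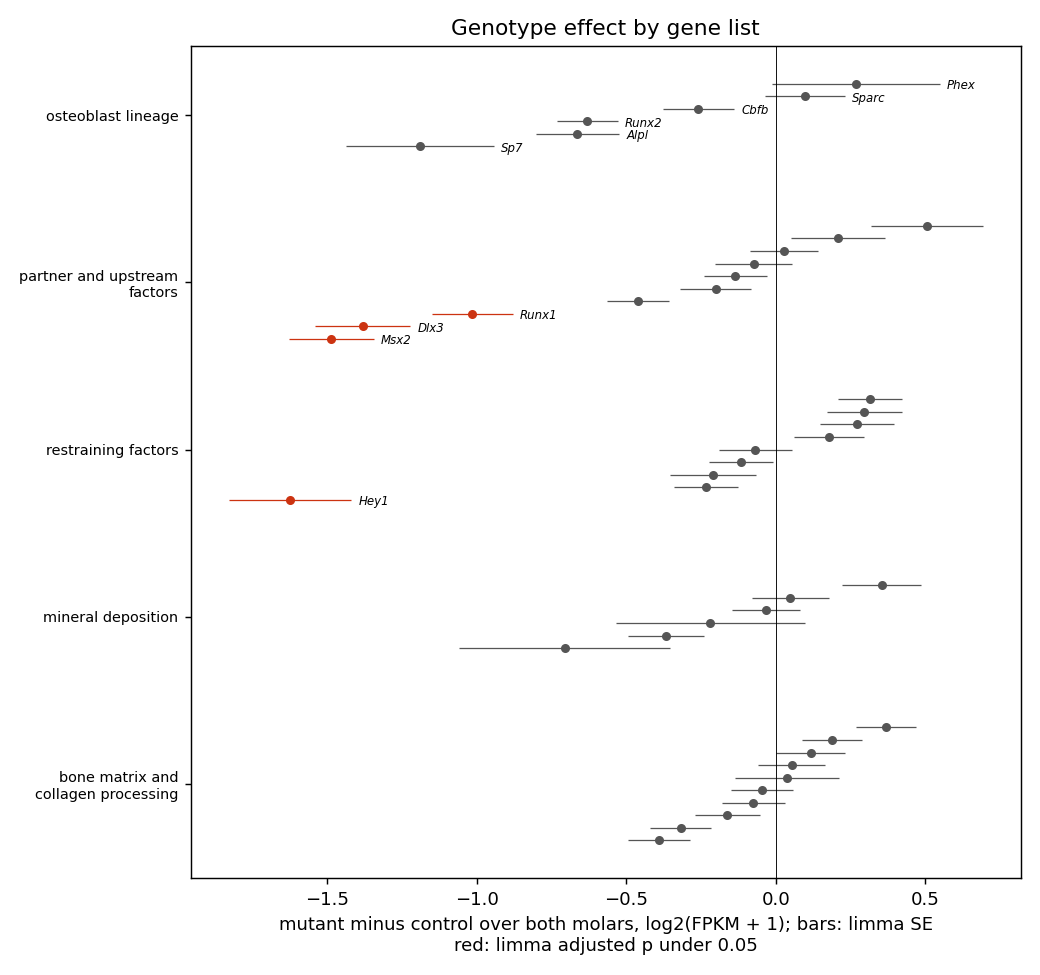
Mutant minus control difference over both molars (horizontal, log2(FPKM + 1)) for tested genes of 5 lists, with the limma SE as bars and calls at an adjusted p under 0.05 in red. The 6 osteoblast lineage genes run from -1.19 for Sp7 to 0.27 for Phex, and Msx2, Dlx3, Runx1 and Hey1 are in red. A called factor that is not reported here is not drawn.

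The genes with the pattern most like Runx2 and Sp7 were found by the Euclidean distance between log2(FPKM + 1) values, centred on each gene's mean, over the 4 libraries. The search took in 8153 genes whose mean was 2 FPKM or more, with provisional, small RNA and pseudogene symbols left out. For Runx2 the nearest were Prr11, Iqgap2, Srd5a1, Tgfbi and Nhs, at distances of 0.03 to 0.12. Prr11 measured 14.3 and 11.2 FPKM in the controls against 8.84 and 6.69 FPKM in the mutants. For Sp7, S1pr1, Mxra8 and Pgf were among the 5 nearest, at distances of 0.55 to 0.64. A profile of 4 libraries is short, and the likeness is a description.

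Markers of other cell types that make or accompany these proteins were compared in the same libraries. Of 12 macrophage markers, a source of Spp1, 5 had a mean of at least 1 FPKM. The summed level of the 12 was 12.4 to 15.2 FPKM per library. limma called 0 of the 5, against 0.8% of all genes, with 1 at an unadjusted p under 0.05, against 13.2%. Of 12 endothelial markers, a source of Sparc, all 12 were tested and limma called 0, against 0.8% of all genes. An unadjusted limma p under 0.05 held for 2 of these 12 markers, against 13.2% of all genes. Lower mutant values in both molars were seen for 7 of the 12, against 32.4% of all genes. Higher ones in both were seen for 0, against 27.2%. The summed endothelial level was 56.0 FPKM in the control upper and 39.9 FPKM in the mutant upper molar. In lower molars it was 50.4 FPKM (control) and 47.2 FPKM (mutant). It was lowest in the mutant upper molar, as Sp7 and Alpl were, and its part in their values was not tested.

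Osteoclast markers had a summed level of 9.48 and 8.14 FPKM in control upper and control lower molars and of 6.94 and 4.03 FPKM in the mutants. Of these 7 genes 2 were tested, and limma called 1 lower, against 0.457% of all genes. This was Mmp9, a matrix protease (-1.23 ± 0.17, log2, SE, limma adjusted p = 0.036). The other, Ctsk, a bone-resorbing protease, measured 3.07 and 3.18 FPKM in the controls against 4.09 and 2.78 FPKM in the mutants (0.09 ± 0.15, log2, SE, limma adjusted p = 0.84). Without Mmp9 the osteoclast sum was 4.72 and 4.74 FPKM in the controls against 4.92 and 3.50 FPKM in the mutants. Acp5, Calcr, Ocstamp and Atp6v0d2, all below a mean of 1 FPKM and not tested, had lower mutant values in both molars. Calcr and Ocstamp rested on too few reads for a genotype difference to be told. In upper molars Calcr had about 4.64 reads in the control and 4.56 in the mutant. Ocstamp had about 1.30 and 2.58 reads in the controls and 0 in the mutants. Acp5 measured 1.33 and 1.06 FPKM in the controls against 0.649 and 0.676 FPKM in the mutants. Oscar, an osteoclast receptor, was under 0.1 FPKM in every library. Cartilage markers summed to 39.6 and 34.2 FPKM in the controls and to 31.98 and 24.6 FPKM in the mutants, with Acan, Matn1 and Matn3 under 0.1 FPKM in every library. Of 5 tested cartilage genes limma called 1, Sox9, lower (-1.18 ± 0.11, log2, SE, adjusted p = 0.015), against 0.457% of all genes. Neither call was kept after rescaling by median ratios, without a filter or a molar term, or when any 1 library was left out, and Mmp9 also lost its call with a pseudocount of 0.1 and without an intensity trend. The limma adjusted p ran from 0.011 to 0.97 for Mmp9 and from 0.0041 to 0.97 for Sox9 over all alternatives. The cartilage sum without Sox9 and Sox6 was 23.8 and 25.8 FPKM in the controls against 24.4 and 21.8 FPKM in the mutants. Col2a1, the main collagen of cartilage, measured 4.197 and 5.96 FPKM in the controls against 4.17 and 6.23 FPKM in the mutants, and Col11a1 15.8 and 17.6 FPKM against 18.2 and 14.0 FPKM. Without Mmp9, Sox9 and Sox6 the mutant sums of both lists were thus lower in the lower molar alone. The genes left out were chosen from these same values, and the remaining sums consisted mostly of Ctsk and Col11a1. Gene by gene, 5 of 7 osteoclast and 5 of 10 cartilage markers had lower mutant values in both molars, and 0 had higher ones. These cartilage markers were Sox9, Sox6, Sox5, Col9a1 and Hapln1. Both counts include genes too weak to be tested, Col9a1 and Hapln1 among them. Of the tested markers, 1 of 2 osteoclast and 3 of 5 cartilage genes were lower in both molars, and 0 were higher. Of all genes tested, 32.4% were lower and 27.2% higher in both. The part of these markers in the values of Runx2, Sp7 and Alpl was not tested.

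Epithelial markers summed to 20.4 to 23.0 FPKM per library, with Shh under 0.1 FPKM in every library, and muscle markers to 3.01 to 3.48 FPKM, with Ckm, Myf5 and Myod1 under 0.1 FPKM. limma called 0 of 4 tested epithelial genes and 0 of 1 muscle gene, against 0.8% of all genes. An unadjusted limma p under 0.05 was reached by 0 and 0 of them, against 13.2% of all genes. With so few genes tested, these counts show neither a difference nor its absence. Neural markers summed to 2.87 and 4.81 FPKM in control upper and control lower molars and to 8.56 and 7.16 FPKM in the mutants, most of which was Nefl, at 6.89 and 4.15 FPKM in the mutants. limma called 0 of the 1 neural gene tested, against 0.8% of all genes. This gene had an unadjusted limma p under 0.05, as did 13.2% of all genes. Without Nefl the other 7 neural genes summed to 2.24 FPKM in the control upper, 3.30 FPKM in the control lower, 1.68 FPKM in the mutant upper and 3.01 FPKM in the mutant lower molar. The order of the neural sum thus rested on Nefl, and Tubb3 went the other way in the mutant upper molar (0.0858 FPKM against 0.9998 FPKM in the control upper).

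**Figure D5:**
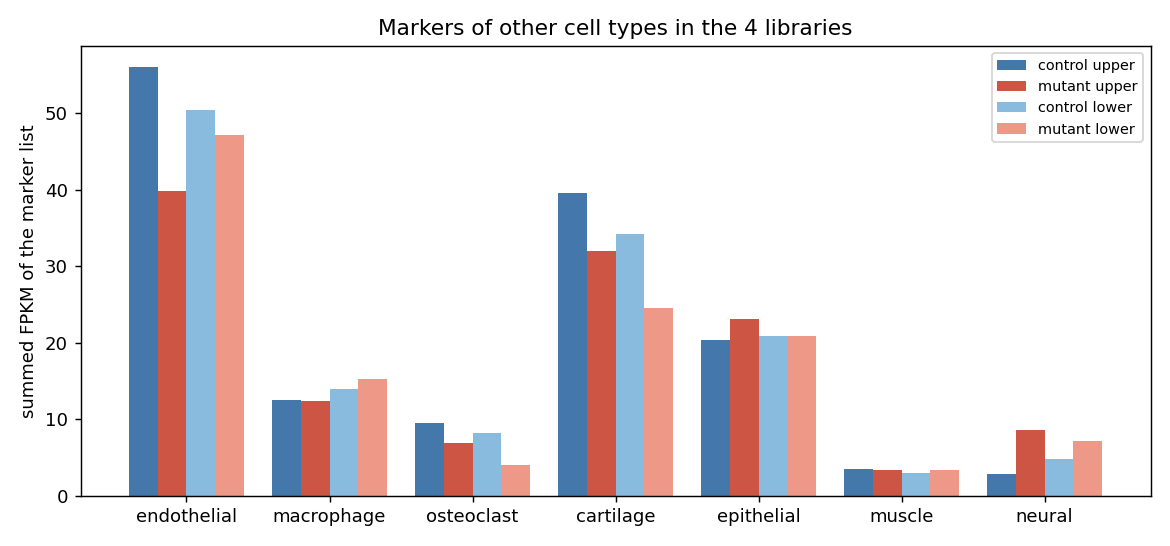
Summed FPKM (vertical axis, linear, from 0) of 7 marker lists of other cell types, with 1 bar per library. The endothelial sum is lowest in the mutant upper molar at 39.9 FPKM. The osteoclast and cartilage sums are lower in each mutant bar than in the control of the same molar. Without Mmp9, Sox9 and Sox6 (not drawn) they are lower in the lower molar alone.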

How the data were processed

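Amplified cDNA of laser-captured mesenchyme (NuGEN Ovation, an RNA-Seq v2 kit) went into Illumina Nextera libraries, per the labels' protocols. Alignment used TopHat 1.4.1 with Bowtie 0.12.7 against mm9 (per the submitters' processing notes). Transcript tables in the Cufflinks layout give FPKM computed by the authors for 28107 RefSeq transcripts, per the file headers; the Cufflinks version and strand setting are not given in the sources used here. The authors' deposited coverage signal gave approximate reads: coverage times length, divided by 44.2 bases, the typical content of genes holding about 1 read. Whole reads were not recovered, so no count test was run.

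FPKM was summed per gene symbol. limma 3.58.1 in R 4.3.3 was fitted to log2(FPKM + 1) (pseudocount 1) for genes averaging 1 FPKM or more, with an intensity trend, two-sided, and Benjamini-Hochberg adjustment over all genes at 0.05. The script was tested on simulated data. The members and lists were chosen with earlier results of these data known. Named genes were the members, Bmp4, every list gene called by genotype, up to 3 per list with the largest genotype effect, and the 5 genes nearest in pattern to Runx2 and to Sp7. Runx3, Cebpb, Dlx5, Dlx6, Nefl, Tubb3, Ctsk, Sox6, Col2a1, Col11a1 and genes under 0.1 FPKM were named after their values were seen. The same holds for Acp5, Calcr, Ocstamp, Atp6v0d2, Sox5, Col9a1, Hapln1 and Dmp1. Some genes that this rule takes in are not reported here. Alternatives were a pseudocount of 0.1, other filters and scalings, no trend, no term for the other factor, no transcripts under 0.3 kb, and each library left out.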

Additional observations from a re-analysis of the deposited data

Results flagged for a closer look

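In 2 members the genotype difference had opposite signs in the 2 molars, which holds for 40.2% of all genes tested. Phex was higher in the mutant upper molar by 0.90 and differed by -0.37 in the lower molar (log2). Sparc differed by -0.13 in the upper and by 0.33 in the lower molar. With 1 library per genotype and molar, the difference between molars was not tested for either gene.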

How the results depend on the processing

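The limma count of all genes called by genotype, 84, was 146 at a mean of at least 5 FPKM, 133 without transcripts under 0.3 kb, 38 without an intensity trend, 12 after rescaling by median ratios, 7 without a molar term and 0 with no filter for weak genes (limma, 1590 at unadjusted p under 0.05). With 1 library left out it was between 5 (without control upper) and 18 (without mutant upper). The count of osteoblast lineage members called by genotype, 0, was 2 (Runx2 and Sp7) at a mean of at least 5 FPKM and also without short transcripts, and 1 (Runx2) after rescaling to an equal sum. Members called by molar, 0, were 1 (Sparc) at a mean of at least 5 FPKM and 2 (Sparc and Alpl) without short transcripts. Members lower by 2-fold, 1 in upper and 0 in lower molars, were 2 and 2 with a pseudocount of 0.1, and 3 and 3 at 1.5-fold. Under the other settings run these member counts did not change. Leaving out 1 library, in fits with no term for the other factor where the lone sample is assumed to vary like the others, changed these signs. By genotype, Phex ran from -0.10 (without control upper) to 0.64, Sparc from -0.39 (without mutant lower; -0.16 without control upper) to 0.59, Enpp1 from -1.97 to 0.56 (without mutant lower), and Mgp from -0.12 (without mutant upper; -0.04 without control lower) to 0.83. By molar, Phex ran from -0.35 (without control upper; -0.08 without control lower) to 0.56 and Sp7 from -0.61 (without mutant upper; -0.04 without control lower) to 1.15. As no member passed the test, keeping its side of the threshold says nothing about stability. By genotype Alpl lay between -1.16 and -0.16 and Cbfb between -0.46 and -0.06. By molar Runx2 lay between -0.67 and -0.03, Alpl between 0.34 and 1.22 and Cbfb between -0.46 and -0.04. Runx2 lay between -0.81 and -0.45 (adjusted p 0.013 to 0.97) and Sp7 between -1.61 and -0.77 (adjusted p 0.012 to 0.97). No paired analysis was possible because the labels give no replicate numbers and each group has 1 library. Depth limits Ibsp and Spp1.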
